A study of Mus musculus with 3 samples.

Results

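The receptor chains of GM-CSF and IL-6 and the genes that feed back on their signals were followed in MDSCs (myeloid-derived suppressor cells), a mixture of immature monocytic and granulocytic cells known for holding back T cells, grown in culture. The set held 10 genes, chosen by name: the receptor genes Csf2ra, Csf2rb, Csf2rb2, Il6ra and Il6st, and the feedback genes Socs1, Socs2, Socs3, Cish and Pim1. Each name had 1 row among the 20649 Ensembl rows of a table of 57561 rows, and all 10 averaged 1 FPKM or more (fragments divided by transcript length and by the library total). RNA came from marrow of the femur, kept for 4 days in medium holding both cytokines. The 3 libraries came from lncGM1082-/- mice (lncGM1082 KO), lnc57Rik-/- mice (lnc57Rik KO) and wild type mice (WT), each lacking a long noncoding RNA or none, all on the C57BL/6 strain and all grown in both cytokines. There was 1 library per genotype, the labels give neither the age of the mice nor whether animals were pooled, and the growth protocol does not name lncGM1082 KO mice.

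GM-CSF is bound by an alpha chain, encoded by Csf2ra, which pairs with the common beta chain, and IL-6 is bound by its own alpha chain and then by gp130, the product of Il6st. Both receptors activate Janus kinases, which phosphorylate STAT proteins; GM-CSF signals mainly through STAT5 and IL-6 mainly through STAT3. STATs switch on Cish and the Socs genes, whose proteins bind the activated receptors or kinases and damp the signal, and they also switch on Pim1, a kinase that favours survival. These cytokines are a standard pair for growing MDSCs from marrow.

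With no replicates, there is no test and no p-value. A gene was called when its log2 ratio of FPKM + 1 reached 1 in either direction, named here the rule of size. The fragments behind the FPKM were recovered from the table, with totals of 18280437 in the lncGM1082 KO, 17593410 in the lnc57Rik KO and 18485078 in the WT library. FPKM ratios carry 95% exact binomial (Clopper-Pearson) intervals from these fragments, which cover counting error only and no difference between mice, cultures or library preparations. The row at the position of Arhgap33os, whose RefSeq synonym is Gm1082, had 0.0620 FPKM in the lncGM1082 KO, 0 in the lnc57Rik KO and 0.0204 in the WT library, too little to check that label. The number of symbols ending in 57Rik was 0, so the loss of lnc57Rik was not checked either.

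Marker genes of other cells differed between the libraries. The 10 listed B lineage markers summed to 16.3 FPKM in the lncGM1082 KO, 209 in the lnc57Rik KO and 10.9 in the WT library, and all 10 passed the rule of size upwards in the lnc57Rik KO library against WT. The 10 dendritic cell markers summed to 256, 538 and 175 FPKM in that order, the 6 eosinophil markers found to 324, 445 and 277 FPKM, and the 10 neutrophil markers to 6589, 10128 and 10423 FPKM. Of these lists, 0 members were at 0 in any library. Monocyte and macrophage markers summed to 1822, 1452 and 1756 FPKM, basophil and mast cell markers to 90.4, 163 and 79.8 FPKM, and the T and NK cell, erythroid and stromal lists each to at most 9.09 FPKM in any library. Of the core MDSC markers, Ly6g, Ly6c2, Itgam, Arg1, Nos2, Cybb, S100a8 and S100a9 were present in all 3 libraries, and Ly6c1 had a mean below 1 FPKM. Of these, 3 passed the rule of size downwards in lnc57Rik KO over WT: Ly6g (-1.75), Arg1, the arginase of suppressive myeloid cells (-1.25), and Nos2, the inducible nitric oxide synthase (-1.06). In lncGM1082 KO over WT 1 passed it downwards, Ly6g (-1.09). Arg1 had 569 FPKM in the lncGM1082 KO, 262 in the lnc57Rik KO and 626 in the WT library, and Nos2 had 1087, 426 and 886 FPKM in that order. The part of these cells in any result on the receptor and feedback genes was not tested, and in bulk RNA fewer cells of a type and less RNA per cell cannot be told apart.

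The mouse has 2 genes of the beta chain family, both on chromosome 15 (GRCm38), which matters for every value of either. Csf2rb encodes the common chain, shared with the receptors for IL-3 and IL-5, and Csf2rb2 encodes a mouse chain specific to IL-3. Their coding sequences in GENCODE M21 were 95.2% identical over 2631 aligned bases, with an identical run of 242 bases. The first 90 coding bases of both are shown because reads that cover none of the 3 differing bases, in capitals, fit either gene.
Csf2rb: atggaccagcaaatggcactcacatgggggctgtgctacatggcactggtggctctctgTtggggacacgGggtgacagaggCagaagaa
Csf2rb2: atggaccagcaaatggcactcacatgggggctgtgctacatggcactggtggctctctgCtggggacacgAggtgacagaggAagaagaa
Of all 50-base windows of the Csf2rb coding sequence, 26.3% occurred unchanged in a Csf2rb2 transcript, and 11.0% of 100-base windows did. The read length and the handling of ambiguous reads are not stated in the labels, so the split between both rows is uncertain.

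RefSeq promoters (GRCm38.p6; 250 bases before to 50 from the start site on) were at hand for 8 of the 10 genes, 9 promoters in all because Pim1 had 2; Csf2rb and Socs2 were not matched. They were searched for TTCNNNGAA, the general form of the element that STAT dimers bind, which reads the same on both strands. It occurred in 3 of the 9, those of Cish, Socs3 and Csf2rb2, and in 8.30% of all 32851 promoters of the table. Cish had 2 matches, at bases 1 and 12 from its start site, which 0.457% of all promoters reached or passed. The matches are shown in capitals because Cish and Socs3 are the feedback genes whose levels are compared below.
Cish (chr9:107296654-107296683, plus strand): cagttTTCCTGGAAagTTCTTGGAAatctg
Socs3 (chr11:117969482-117969561, minus strand): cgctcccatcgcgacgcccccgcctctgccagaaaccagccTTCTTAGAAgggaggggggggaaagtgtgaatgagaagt
Csf2rb2 (chr15:78305722-78305801, minus strand): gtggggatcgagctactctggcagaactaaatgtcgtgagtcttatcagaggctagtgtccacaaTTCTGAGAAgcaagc
The promoters of Socs1, Pim1, Csf2ra, Il6ra and Il6st held none in this window. A later part of the 50 bases from the start site on, read on the strand of the promoter, was looked for in transcripts of the same gene. It was found for every promoter but that of Socs3. The bases right after the start site, with the Cish match at base 1, were not part of that check. The windows of Socs3 and Cish lie inside the spans of these genes given below, so their start sites are not the outer ends of those spans. A match is a description of the letters only, and binding was not measured.

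Levels in these MDSCs differed far more between genes than between libraries. Csf2ra, Csf2rb, Csf2rb2, Socs3 and Pim1 stood above 100 FPKM in every library, Socs1 and Cish stood between 28.2 and 57.0 FPKM, and Il6ra, Il6st and Socs2 stayed below 10 FPKM. Among 20649 Ensembl rows, Socs3 ranked 54 in the lncGM1082 KO, 105 in the lnc57Rik KO and 57 in the WT library. Csf2rb ranked 96, 86 and 80 in that order, and Il6ra, at the other end of the receptors, ranked 6720, 7849 and 5500.

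**Figure D1:**
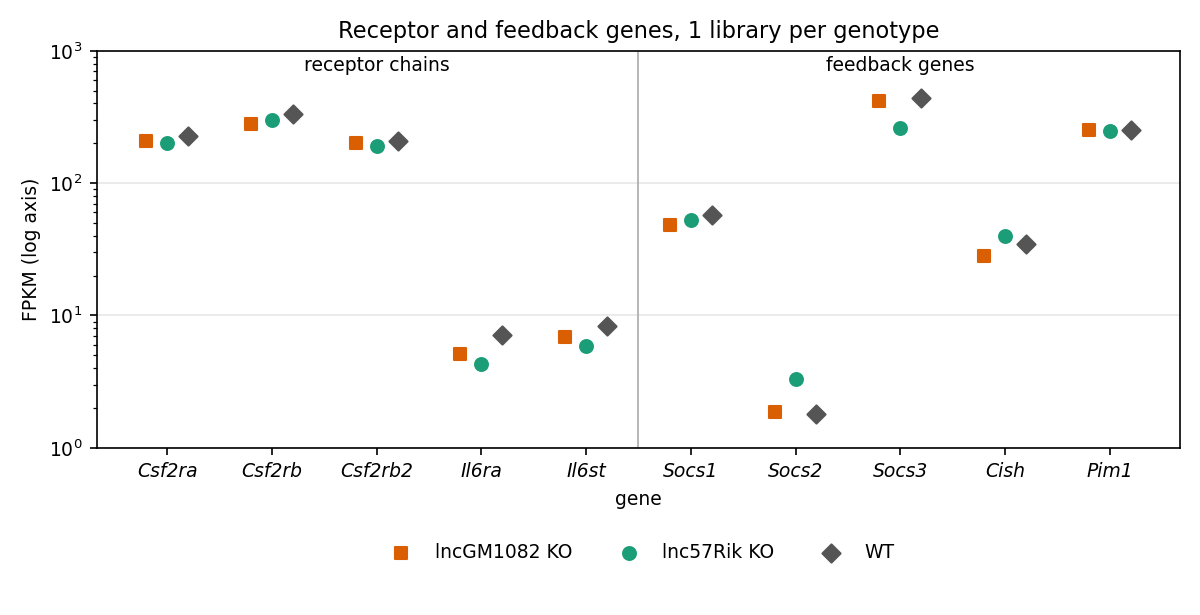
FPKM (log axis) of the 10 genes, with receptor chains left and feedback genes right; each point is 1 library (squares lncGM1082 KO, circles lnc57Rik KO, diamonds WT). Il6ra and Il6st lie below 10 FPKM in every library while Csf2ra, Csf2rb and Csf2rb2 lie near or above 200 FPKM, and Socs3 and Socs2 are the feedback genes whose lnc57Rik KO point stands apart from the other points.

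The chains of the GM-CSF receptor, and the IL-3 chain gene Csf2rb2, were abundant in every library and close between genotypes. Csf2ra (chromosome 19, 61224402 to 61228418), the alpha chain that binds GM-CSF, had 209 FPKM in the lncGM1082 KO, 202 in the lnc57Rik KO and 225 in the WT library. Csf2rb (chromosome 15, 78325798 to 78353847), the signalling chain, had 279.7 FPKM in the lncGM1082 KO, 302 in the lnc57Rik KO and 330.1 in the WT library. Csf2rb2 (chromosome 15, 78282507 to 78305721) had 201 FPKM in the lncGM1082 KO, 191 in the lnc57Rik KO and 206 in the WT library. For all 3 genes WT was the highest library, by small margins. The summed FPKM of Csf2ra and Csf2rb was 489 in the lncGM1082 KO, 504 in the lnc57Rik KO and 555 in the WT library.

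The ratio of beta to alpha chain transcripts, Csf2rb over Csf2ra, was 1.335 in the lncGM1082 KO, 1.498 in the lnc57Rik KO and 1.465 in the WT library. With Csf2rb2 added to Csf2rb, since both rows may share reads, it was 2.30, 2.44 and 2.38 in that order. Csf2rb over Csf2rb2 was 1.39 in the lncGM1082 KO, 1.59 in the lnc57Rik KO and 1.60 in the WT library. The lncGM1082 KO library had less Csf2rb per Csf2rb2 transcript than the other libraries, within the doubt about shared reads. With both rows summed, a setting chosen after the data were seen, the log2 fold of lncGM1082 KO over WT was -0.16 in place of -0.24 for Csf2rb alone.

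Both chains of the IL-6 receptor were scarce, and both were at their highest in WT and their lowest in the lnc57Rik KO library. Il6ra (chromosome 3, 89864059 to 89913196), the chain that binds IL-6, had 5.11 FPKM in the lncGM1082 KO, 4.32 in the lnc57Rik KO and 7.10 in the WT library, from 807, 657 and 1134 fragments in that order. Its FPKM ratio to WT was 0.609 (0.552 to 0.671) in the lnc57Rik KO and 0.720 (0.657 to 0.788) in the lncGM1082 KO library. A NONCODE row on the same strand within Il6ra had 3.63 FPKM in the lncGM1082 KO, 1.57 in the lnc57Rik KO and 3.09 in the WT library. How reads shared by such rows were counted is not given. Other NONCODE rows over Il6ra had at most 0.903 FPKM. Il6st (chromosome 13, 112464070 to 112510086), the shared signalling chain gp130, had 6.86 FPKM in the lncGM1082 KO, 5.93 in the lnc57Rik KO and 8.35 in the WT library. Its ratio to WT was 0.709 (0.658 to 0.765) in the lnc57Rik KO and 0.821 (0.764 to 0.881) in the lncGM1082 KO library. For both chains the intervals against WT excluded 1 in counting terms, and the log2 folds stayed inside the rule of size. Both KO comparisons share the WT library.

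Transcripts of the GM-CSF receptor chains were more abundant per length than those of the IL-6 receptor chains in each library. Csf2ra over Il6ra was 41.0 in the lncGM1082 KO, 46.7 in the lnc57Rik KO and 31.7 in the WT library, and Csf2rb over Il6st was 40.8, 51.0 and 39.5 in that order. Il6st over Il6ra was 1.34 in the lncGM1082 KO, 1.37 in the lnc57Rik KO and 1.18 in the WT library. These are ratios of length-scaled transcript levels, not of protein.

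Among the feedback genes, Socs3 had the fold of largest size in the set on the log2 scale of FPKM + 1, while the plain FPKM ratio of Socs2 was farther from 1. Socs3 (chromosome 11, 117966079 to 117970047), the inhibitor that binds gp130 and blocks Janus kinases, had 417 FPKM in the lncGM1082 KO, 259.7 in the lnc57Rik KO and 441 in the WT library, from 22062, 13208 and 23561 fragments in that order. The lnc57Rik KO library was low and the other libraries lay close together. The FPKM ratio of lnc57Rik KO to WT was 0.589 (0.577 to 0.602), a log2 fold of -0.76, and that of lncGM1082 KO to WT was 0.947 (0.930 to 0.964), a log2 fold of -0.08. Set against the lnc57Rik KO library, the lncGM1082 KO library had a ratio of 1.61 (1.57 to 1.64). Of the 10 neutrophil markers, Ly6g, Cxcr2, Retnlg and Mmp9 passed the rule of size downwards in lnc57Rik KO over WT, with 21.1 FPKM of Ly6g in the lnc57Rik KO library against 73.4 in WT. The log2 folds of the other 6 lay between -0.14 (Camp) and 0.23 (Ltf), and the median of the list was -0.10. In lncGM1082 KO over WT the median of the list was -0.71. Ly6g (-1.09) and Retnlg (-1.49) were past the rule downwards there. The 10 monocyte and macrophage markers had median log2 folds of -0.32 in lnc57Rik KO over WT and -0.06 in lncGM1082 KO over WT. In lncGM1082 KO over lnc57Rik KO their median was 0.24. Of these markers, 1 passed the rule upwards and 1 downwards in lnc57Rik KO over WT. The part of neutrophils, monocytes or macrophages in the Socs3 value was not tested.

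Socs2 was highest in the lnc57Rik KO library, at a low level in all 3. Socs2 (chromosome 10, 95385362 to 95417180), which restrains STAT5 signals such as those of growth hormone, had 1.86 FPKM in the lncGM1082 KO, 3.33 in the lnc57Rik KO and 1.81 in the WT library, from 324, 559 and 319 fragments. The lnc57Rik KO library was high and the other libraries lay close together. Its ratio to WT was 1.84 (1.60 to 2.12) in the lnc57Rik KO and 1.03 (0.877 to 1.20) in the lncGM1082 KO library, where the interval includes 1. The B lineage and dendritic cell markers were higher in the same library, with Cd79b at 53.5 FPKM there and 2.19 in WT, and their part in the Socs2 value was not tested. An antisense NONCODE row within Socs2 had 0.551 FPKM in the lncGM1082 KO, 1.21 in the lnc57Rik KO and 0.242 in the WT library. Since the strand setting of the counting is not given, this row and Socs2 may share reads. Whether the row overlaps exons of Socs2 was not checked. Another NONCODE row within Socs2, on the same strand, had 0.995 FPKM in the lncGM1082 KO, 1.33 in the lnc57Rik KO and 0.703 in the WT library.

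Cish (chromosome 9, 107296026 to 107302784), an SH2 protein induced through STAT5, had 28.2 FPKM in the lncGM1082 KO, 39.8 in the lnc57Rik KO and 34.8 in the WT library. The WT library lay between the KO libraries. The ratio to WT was 1.14 (1.10 to 1.19) in the lnc57Rik KO and 0.810 (0.773 to 0.848) in the lncGM1082 KO library, and that of lncGM1082 KO to lnc57Rik KO was 0.708 (0.676 to 0.740). Gm17040, on the other strand over the start of Cish, had at most 0.738 FPKM.

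Socs1 (chromosome 16, 10782240 to 10785536), an inhibitor of Janus kinases best known for limiting interferon and cytokine signals, had 48.1 FPKM in the lncGM1082 KO, 52.5 in the lnc57Rik KO and 57.0 in the WT library. Its ratio to WT was 0.922 (0.875 to 0.971) in the lnc57Rik KO and 0.844 (0.801 to 0.890) in the lncGM1082 KO library. Pim1 (chromosome 17, 29490812 to 29496111) had 250.0 FPKM in the lncGM1082 KO, 248 in the lnc57Rik KO and 251 in the WT library. Its ratios to WT were 0.988 (0.966 to 1.01) in the lnc57Rik KO and 0.997 (0.975 to 1.02) in the lncGM1082 KO library, the narrowest spread among the 10 genes. Scaling the libraries by median ratios moved its log2 fold in lnc57Rik KO over WT from -0.02 to -0.10, farther than its counting interval reaches.

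**Figure D2:**
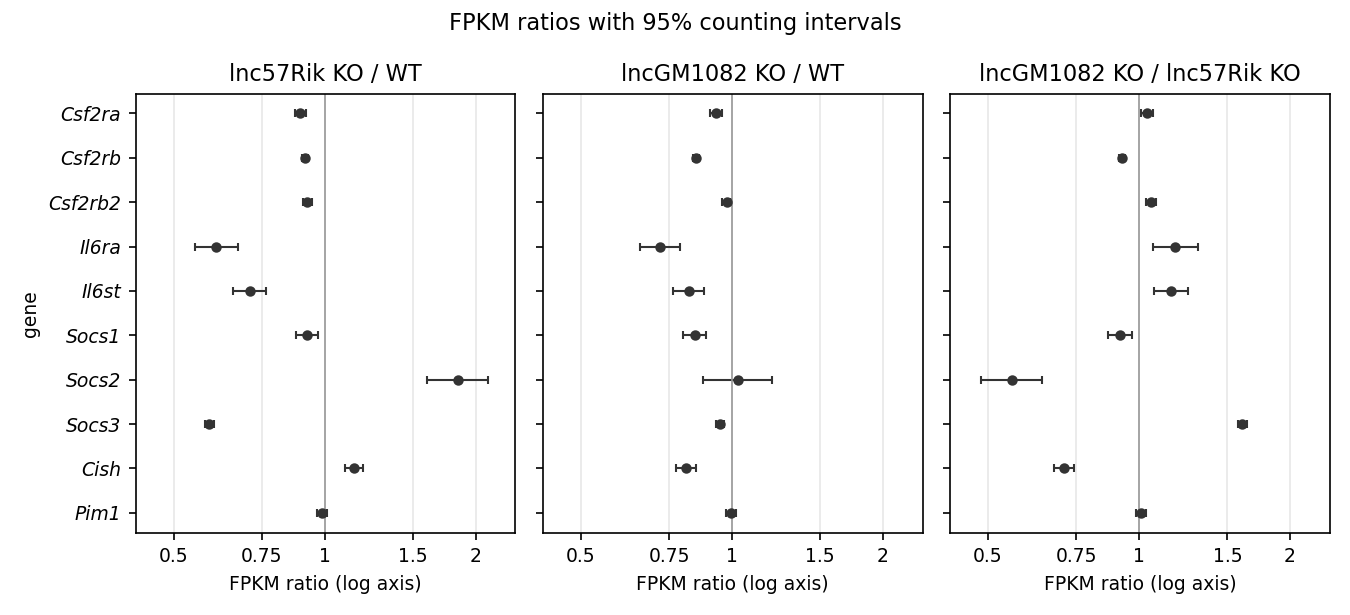
FPKM ratios (log axis) of the 10 genes in the 3 comparisons; points are ratios and bars are 95% counting intervals, with no replicate error. Socs3 (0.589) and Il6ra (0.609) lie lowest and Socs2 (1.84) highest in lnc57Rik KO over WT, while in lncGM1082 KO over WT the lowest point is Il6ra (0.720).

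The mix of feedback transcripts differed between the libraries. Socs3 made up 84.2% of the summed FPKM of Socs1, Socs2, Socs3 and Cish in the lncGM1082 KO, 73.1% in the lnc57Rik KO and 82.5% in the WT library, and the sums were 496, 355 and 534 FPKM in that order. Socs3 over Socs1 was 8.68 in the lncGM1082 KO, 4.94 in the lnc57Rik KO and 7.74 in the WT library. Socs3 over Cish was 14.8 in the lncGM1082 KO, 6.53 in the lnc57Rik KO and 12.7 in the WT library. Socs3 per gp130 transcript (Socs3 over Il6st) was 60.9, 43.8 and 52.8 in that order, so the lnc57Rik KO library stood closer to WT on this scale than for Socs3 alone. The percentages and ratios are taken within a library and do not depend on how the libraries were scaled, while the sums do.

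**Figure D3:**
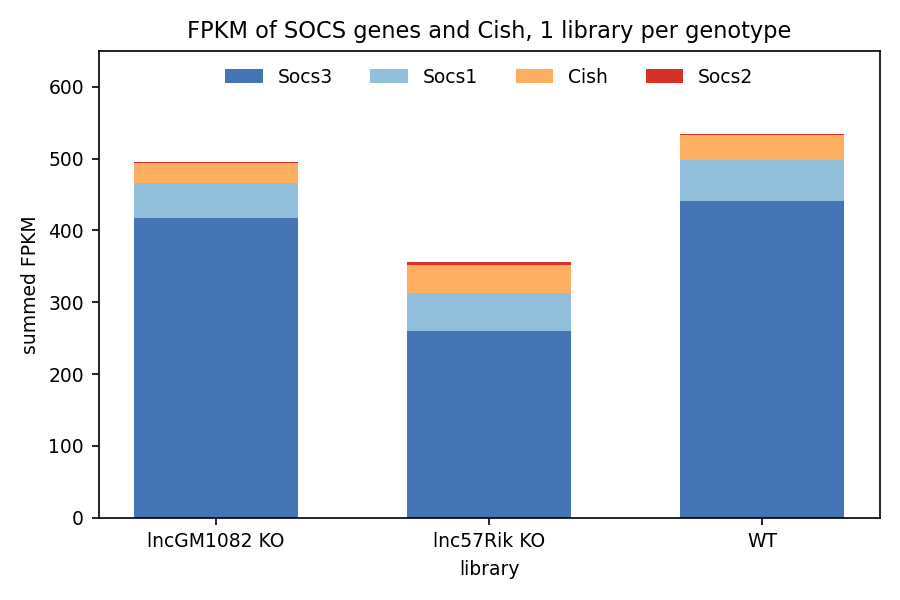
Summed FPKM of Socs3, Socs1, Cish and Socs2, stacked, with 1 bar per library. The lnc57Rik KO bar (355 FPKM) is shorter than the lncGM1082 KO (496 FPKM) and WT (534 FPKM) bars, and most of the gap lies in Socs3.

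In lnc57Rik KO over WT, 0 of the 10 genes passed the rule of size in either direction, where 4.92% of the 22202 rows with a mean of at least 1 FPKM did. Their median log2 fold was -0.12, against 0.07 over all rows. With the rule at 0.5, Socs3 (-0.76) and Il6ra (-0.61) were past it downwards, where 7.9% of all rows were, and Socs2 (0.62) upwards, where 12.7% were. Counting intervals excluded 1 for 9 of the 10, all but Pim1, against 56.9% of the 12034 Ensembl rows with known exon lengths. These intervals narrow as fragments rise, and 5 of the 10 genes stood above 100 FPKM in every library. Whether an interval excludes 1 also depends on library scaling in this comparison. The Ensembl rows reach down to a mean of 1 FPKM, so the shares differ in depth and do not measure the amount of change.

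In lncGM1082 KO over WT, 0 of the 10 passed the rule of size, where 1.81% of all rows did, and 0 passed it at 0.5, where 10.7% of all rows did. The folds ran from -0.41 (Il6ra) to 0.02 (Socs2) with a median of -0.17, against 0.01 over all rows. Of the 10 folds, 9 were below 0, and the counting interval excluded 1 for 8, all but Socs2 and Pim1, against 38.2% of Ensembl rows. The same limit of depth applies to these shares. All 10 folds rest on the same WT library, and the share of all rows below 0 was not counted.

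In lncGM1082 KO over lnc57Rik KO, 0 of the 10 passed the rule of size, where 4.37% of all rows did. With the rule at 0.5, Socs3 (0.68) was past it upwards, where 7.93% of all rows were, and Socs2 (-0.60) downwards, where 12.0% were. The median log2 fold was 0.03, against -0.06 over all rows. Cish was next, at -0.48, followed by Il6ra at 0.20 and Il6st at 0.18. The counting interval excluded 1 for 9, all but Pim1, against 57.3% of Ensembl rows, with the same limits of depth and library scaling.

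The other genes of both pathways were taken from 8 lists of 88 genes, of which 87 were found and 76 averaged 1 FPKM or more. In lnc57Rik KO over WT 1 passed the rule of size upwards and 2 downwards, 3.95% of the 76 against 4.92% of all rows, with a median log2 fold of 0.00. In lncGM1082 KO over WT 0 passed, against 1.81% of all rows, with a median of 0.01. In lncGM1082 KO over lnc57Rik KO 1 passed upwards and 1 downwards, 2.63% against 4.37% of all rows.

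Of these 76, those that passed in lnc57Rik KO over WT were 2 genes listed as STAT targets and a receptor. Irf1, an interferon regulatory factor, had 22.9 FPKM in the lncGM1082 KO, 77.1 in the lnc57Rik KO and 17.3 in the WT library, and its ratio of lnc57Rik KO to WT was 4.46 (4.20 to 4.75). It was highest in the lnc57Rik KO library and also passed the rule downwards in lncGM1082 KO over lnc57Rik KO (-1.71). Saa3, an acute phase protein, had 235 FPKM in the lncGM1082 KO, 94.5 in the lnc57Rik KO and 348 in the WT library, a ratio of lnc57Rik KO to WT of 0.271 (0.262 to 0.281), and it passed upwards in lncGM1082 KO over lnc57Rik KO (1.30). Csf3r, the receptor for G-CSF, had 119 FPKM in the lncGM1082 KO, 63.5 in the lnc57Rik KO and 130.0 in the WT library, a log2 fold of lnc57Rik KO over WT of -1.02, just past the rule. With a pseudocount of 5 its log2 fold was -0.98, inside the rule. Csf3r is also expressed by neutrophils. Their 10 markers summed to 6589 FPKM in the lncGM1082 KO, 10128 in the lnc57Rik KO and 10423 in the WT library. In lnc57Rik KO over WT 4 of the markers were past the rule downwards and the other 6 inside it. The median log2 fold of the list was -0.71 in lncGM1082 KO over WT. The part of neutrophils in the Csf3r value was not tested.

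The STATs used by the culture cytokines stayed inside the rule of size. Stat5a had 26.4 FPKM in the lncGM1082 KO, 26.8 in the lnc57Rik KO and 19.3 in the WT library, and Stat5b had 19.6, 23.4 and 16.8 FPKM in that order. For both the log2 fold of lnc57Rik KO over WT was inside the rule, at 0.45 and 0.46. Stat3 had 46.9 FPKM in the lncGM1082 KO, 39.6 in the lnc57Rik KO and 42.9 in the WT library, and Jak2, the kinase bound to the beta chain, had 115, 109 and 108 FPKM. Cebpb, a transcription factor of myeloid cells, had 148 FPKM in the lncGM1082 KO, 150.1 in the lnc57Rik KO and 236 in the WT library, with log2 folds to WT of -0.67 and -0.65 in that order. These 5 genes were singled out for their place in the pathway, with their values known. Stat4, which carries IL-12 signals, reached 0.87 and Stat2, which carries interferon signals, 0.73 in lnc57Rik KO over WT, both inside the rule; with a pseudocount of 0.1 Stat4 reached 1.05, past it.

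Of the ligands, the cells transcribed Il6 but hardly Csf2. Il6 had 188 FPKM in the lncGM1082 KO, 157 in the lnc57Rik KO and 163 in the WT library, while Csf2, which encodes GM-CSF, had 0.615, 0.568 and 0.947 FPKM; both were singled out as the cytokines of the culture. Among the 7 of 13 ligands that averaged 1 FPKM or more, 0 passed the rule of size in any comparison, and the largest folds were Il27 (0.70 in lncGM1082 KO over lnc57Rik KO) and Clcf1 (0.60 in lnc57Rik KO over WT). In the lists of receptor shedding, adaptors and kinases, other inhibitors and the SOCS box ligase, 0 genes passed in any comparison. The shedding protease Adam10 reached -0.37 in lncGM1082 KO over lnc57Rik KO, and Rhbdf2, a cofactor of the related protease Adam17, -0.22 in lnc57Rik KO over WT. Of the phosphoinositide kinase subunits, Pik3r1 reached 0.64 in lnc57Rik KO over WT and Pik3cd -0.52 in lncGM1082 KO over lnc57Rik KO. Of the inhibitors, Socs5 reached -0.58 in lncGM1082 KO over lnc57Rik KO and the ubiquitin ligase Cblb 0.55 in lnc57Rik KO over WT. Elob, the elongin that links SOCS boxes to a ubiquitin ligase, reached 0.18 and its ligase partner Rnf7 -0.16 in lnc57Rik KO over WT.

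**Figure D4:**
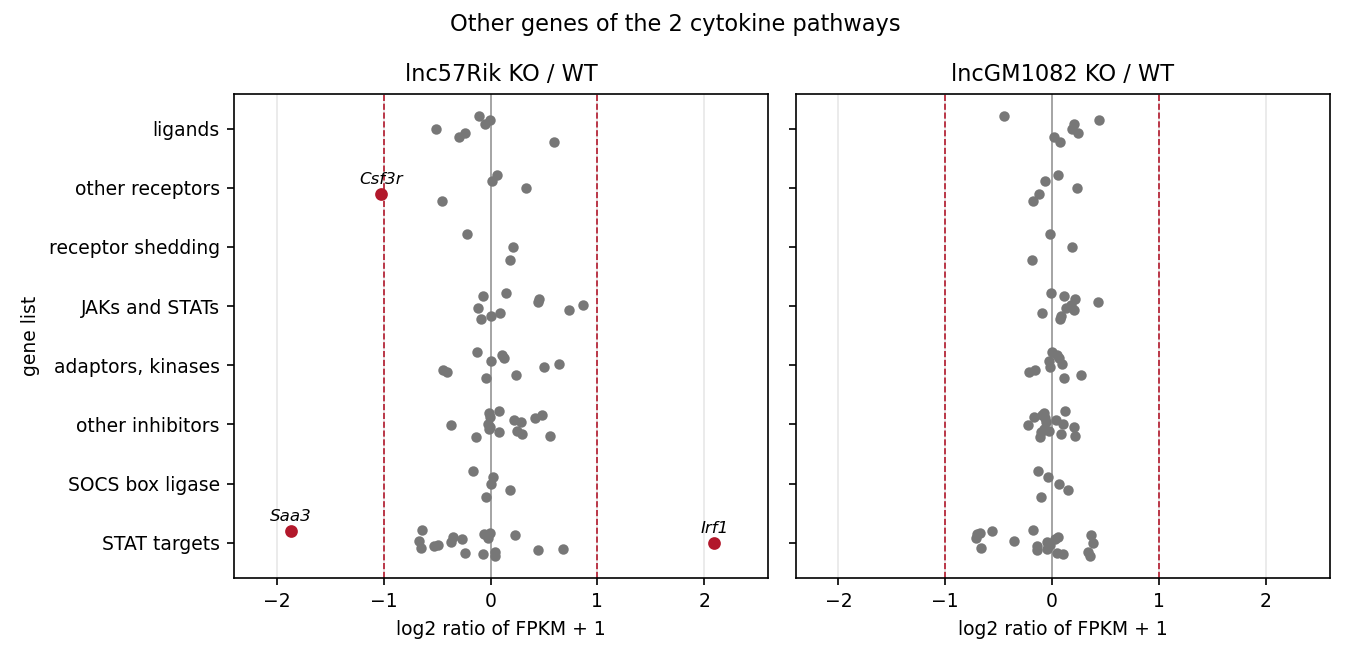
Log2 ratios of FPKM + 1 for the 76 listed pathway genes that averaged 1 FPKM or more, by list; each point is a gene, dashed lines mark the rule of size and red points are past it. Irf1, Saa3 and Csf3r are past it in lnc57Rik KO over WT, and 0 genes are in lncGM1082 KO over WT.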

How the data were processed

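RNA sequencing values of 3 MDSC libraries were read from the table the authors deposited, in FPKM per gene, with 1 column per library and 0 unmapped value columns. Bowtie 0.12.2 and the build mm9 are named in the submitters' processing notes, with no role or order; how fragments were counted, by which annotation and with which strand setting is not given there. Gene positions in the table follow GRCm38: 7 of the 10 genes had the identical position in GENCODE M21. The rows hold 36912 NONCODE identifiers.

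Where a gene symbol had several rows, the row with the highest mean was used. Dividing each FPKM by the worth of 1 fragment, from GENCODE M21 exon lengths, gave whole numbers (tolerance 0.05) for 99.1% of low values, under 20 fragments, in single-transcript genes and for 93.4% in the rest. The fragments of Csf2ra, Csf2rb and Pim1 did not come out whole, since their gene models differ, so their intervals are approximate. The 10 genes had between 319 and 44401 fragments a library. Folds are log2 ratios of FPKM + 1, a pseudocount that understates changes of low genes. Named pathway genes were those past the rule of size and otherwise those with the largest folds of a list. The scripts (Python 3.11.15, pandas 2.3.3, SciPy 1.17.1) were tested on simulated data. The genes and lists were chosen with earlier results of these data known. From the pathway lists 1 gene was left out after its values were seen, and it is not reported here.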

Additional observations from a re-analysis of the deposited data

How the results depend on the processing

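No paired analysis was possible because each genotype has 1 library. Over 8 settings planned and 1 added after the data were seen (Csf2rb and Csf2rb2 summed), the counts of receptor and feedback genes past the rule of size stayed at 0 in all 3 comparisons, except with the rule at 0.5, where they were 1 higher and 2 lower in lnc57Rik KO over WT and 1 higher and 1 lower in lncGM1082 KO over lnc57Rik KO. With the rule at 0.5, 15 of the 76 listed pathway genes passed in lnc57Rik KO over WT, where 4569 of all 22202 rows did. In lncGM1082 KO over WT 5 passed, where 2368 of all rows did, and in lncGM1082 KO over lnc57Rik KO 15, where 4423 did. With the rule of 1 the pathway counts were 3, 0 and 2 in that order. In lnc57Rik KO over WT the count was 2 with a pseudocount of 5, where Csf3r (-0.98) was lost, and 4 with a pseudocount of 0.1, where Stat4 (1.05) was gained; in lncGM1082 KO over lnc57Rik KO it was 3 after scaling on all but the 20 most abundant rows, where Il27ra (-1.28) came above the minimum mean. The log2 fold of Socs3 in lnc57Rik KO over WT lay between -0.85 and -0.75 over the settings, that of Socs2 between 0.29 (pseudocount of 5) and 0.85 (pseudocount of 0.1), and that of Il6ra between -0.70 and -0.38 (pseudocount of 5). Of 30 folds 1 changed sign in any setting, that of Pim1 in lncGM1082 KO over WT, which lay between -0.02 and 0.00. Scaling by median ratios lowered the folds in lnc57Rik KO over WT, that of Pim1 from -0.02 to -0.10 and that of Cish from 0.19 to 0.11. For all but Il6ra, Il6st and Socs2 the shift was farther than the counting interval reaches. In lncGM1082 KO over lnc57Rik KO the same scaling moved Csf2ra from 0.05 to 0.13 and Csf2rb from -0.11 to -0.04. For these genes, Csf2rb2, Socs3, Cish and Pim1 the shift there was also farther than the counting interval reaches. Small ratios, and whether an interval excludes 1, thus depend on library scaling in the comparisons with the lnc57Rik KO library. With a minimum mean of 5 FPKM Socs2 was not compared. The counts of all rows past the rule of 1, in the same order of comparisons, were 1092, 402 and 971; they were 225, 41 and 182 with a pseudocount of 5, 2119, 1090 and 1980 with a pseudocount of 0.1, 356, 97 and 312 with a minimum mean of 5 FPKM, and 3670, 2254 and 3539 after scaling on all but the 20 most abundant rows. Depth did not limit the abundant genes; Socs2 rested on the fewest fragments.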
